A study of Mus musculus with 8 samples.

Results

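Pannexin 1 (Panx1) and 9 genes of purinergic signalling were followed through the RNA of BV2 cells, a line of immortalized mouse microglia. The cells had been through oxygen-glucose deprivation, either alone or together with the Panx1-blocking peptide 10panx1. The 10 genes were grouped by their role, and the choice was made with earlier results of these data known. They were the channel Panx1, the receptors P2rx4, P2rx7, P2ry2, P2ry6, P2ry12 and Adora2b, the ectonucleotidase Entpd1, the deaminase Ada and the transporter Slc29a1, out of 56859 genes in the deposited tables. All 8 libraries came from wild-type BV2 cells held in glucose-free medium at 1% O2 and then returned to normal medium and oxygen, so that every control had been deprived too and no library came from cells left untreated. Titles put 3 control and 3 10panx1 libraries at 9 h and 1 of each at 6 h. For the 10panx1 library at 6 h the peptide stands in the title but not in the treatment label. No control peptide is named. The protocol gives 9 h of deprivation for all samples, and what the times in the titles are counted from is not stated. Separate cultures are not mentioned for the replicates, and their spread, on which every p-value rests, may be technical. In bulk RNA, fewer cells of a kind and less RNA per cell cannot be told apart.

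Panx1 forms a large-pore channel in the plasma membrane through which ATP leaves stressed cells. Outside the cell, ATP opens P2X ion channels, and ATP, UTP and their diphosphates act on P2Y receptors, which couple to G proteins. Ectonucleotidases cut ATP and its products to adenosine, which acts on adenosine receptors and is cleared by nucleoside transporters and by deamination to inosine. In microglia, the immune cells of the brain, P2 receptors serve process extension toward injury, engulfment of debris and release of inflammatory cytokines, and adenosine is mostly known to dampen inflammation.

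Total counts per library ran from 18056693 to 23164860, and 3 counts, taken as the detection floor, corresponded to between 0.13 and 0.166 counts per 1000000 (CPM). Intervals and floors on counts cover counting error only. Of 14 microglia and macrophage markers, 10 stood above 1 transcript per 1000000 (TPM) in every library, while C1qa, Fcrls and Sall1 were below 1 TPM in every library. The summed microglial markers were at 2845 and 2723 TPM at 6 h and between 2026 and 2188 TPM at 9 h. Mitochondrial transcripts took 1.43% and 1.51% of counts at 6 h against 1.14% to 1.28% at 9 h, so both measures moved with time. Cd68 alone gave 1487 and 1426 TPM of the microglial sum at 6 h and between 1008 and 1093 TPM at 9 h. The microglial markers did not fall as a set. Itgam was at most 61.8 TPM at 6 h and at least 63.9 TPM at 9 h. Csf1r was at most 164 TPM at 6 h and at least 169 TPM at 9 h. At 9 h the third control differed from the rest, with 82 genes raised in it alone. Its 6 hepatocyte markers summed to 299 TPM and its fibroblast markers to 17.8 TPM, against at most 1.15 and 0.585 TPM in any 10panx1 library at 9 h. Hpx alone gave 265 TPM of the first sum and Col1a1 12.5 TPM of the second. Not every marker was raised in the third control, where Apoa1 was at 0.258 TPM, below the other controls at 9 h (0.468 and 0.346 TPM), and Dcn and Lum had 0 counts. For 10panx1 against control at 9 h, values without that library are given for the called genes named and for members and list genes whose result moved. The part of these measures in the results below was not tested.

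The promoters of 3 of the genes are shown because hypoxia was part of every sample and because these 3 were the channel itself, the gene that differed with 10panx1 and the adenosine receptor with the largest fall between the times. Each is the window of 250 bases before a transcript start in RefSeq's table for mouse build GRCm38.p6, read 5' to 3' along the gene, with capitals marking matches on either strand to the core of the hypoxia response element, ACGTG or GCGTG. A match on the opposite strand appears as the reverse complement.
Panx1, chr9:15045479-15045728, minus strand: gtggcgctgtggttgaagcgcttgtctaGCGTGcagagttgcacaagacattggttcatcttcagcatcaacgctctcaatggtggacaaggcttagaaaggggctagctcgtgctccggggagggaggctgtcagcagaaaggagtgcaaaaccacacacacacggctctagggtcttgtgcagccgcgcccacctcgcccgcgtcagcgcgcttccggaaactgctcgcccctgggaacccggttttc
Entpd1, chr19:40612116-40612365, plus strand, the first of 2 windows in the table: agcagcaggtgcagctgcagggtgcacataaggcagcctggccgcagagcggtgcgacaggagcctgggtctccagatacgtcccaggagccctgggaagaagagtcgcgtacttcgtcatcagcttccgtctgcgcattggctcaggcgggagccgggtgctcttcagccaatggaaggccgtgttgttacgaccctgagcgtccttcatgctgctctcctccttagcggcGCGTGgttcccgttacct
Adora2b, chr11:62248734-62248983, plus strand: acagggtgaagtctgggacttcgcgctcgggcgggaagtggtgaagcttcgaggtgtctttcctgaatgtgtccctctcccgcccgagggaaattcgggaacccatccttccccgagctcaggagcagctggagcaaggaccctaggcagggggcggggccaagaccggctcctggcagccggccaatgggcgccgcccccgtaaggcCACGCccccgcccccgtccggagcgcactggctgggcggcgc
The core lay 222 bases before the start in Panx1, 18 bases before it in Entpd1 and 42 bases before it in Adora2b, which also held 6 GC boxes (GGGCGG). The second window of Entpd1, not shown, held no match to either core. Of the 9 genes with a window (P2ry6 had no entry), 5 held either core in their first window, against 38.6% of all 32817 windows of this length. The GC box was in 4 of the 9 first windows and in 32.7% of all windows, the AP-1 motif TGANTCA was in 1 of 9 and in 6.75% of all, and the cyclic AMP response element TGACGTCA was in 0 of 9 and in 1.55% of all. ACGTG and GCGTG share 4 letters but cannot match at the same place on the same strand, and a match describes letters, not a bound site.

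Levels of different genes were set side by side in TPM, which is scaled by transcript length. In the controls at 9 h the adenosine transporter Slc29a1 stood highest, at 59.4 ± 6.94 TPM (SD, n = 3), followed by P2rx4 at 24.2 ± 1.69, P2ry2 at 18.9 ± 0.801, Panx1 at 14.4 ± 0.853 and P2ry6 at 12.8 ± 0.946 TPM. Below them came Ada at 7.03 ± 1.25, P2rx7 at 5.98 ± 0.283, Entpd1 at 4.49 ± 0.422, Adora2b at 4.15 ± 1.66 and P2ry12 at 0.341 ± 0.164 TPM. The libraries of Panx1 and P2ry6 overlapped, as did those of Ada and P2rx7 and those of Entpd1 and Adora2b, and the other neighbours in the order did not overlap. With 10panx1 at 9 h, Entpd1 stood above P2rx7 instead of below it, at 6.79 ± 0.894 against 5.25 ± 0.241 TPM (SD, n = 3). In the control library at 6 h Adora2b, at 9.64 TPM, stood above P2ry6 at 7.85 TPM, the reverse of their order at 9 h. The 10panx1 library at 6 h had the order seen at 9 h, with P2ry6 at 8.30 TPM above Adora2b at 6.86 TPM. P2ry12, a receptor for ADP and a marker of resting microglia in the brain, was the lowest of the 10 genes in all 8 libraries.

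**Figure D1:**
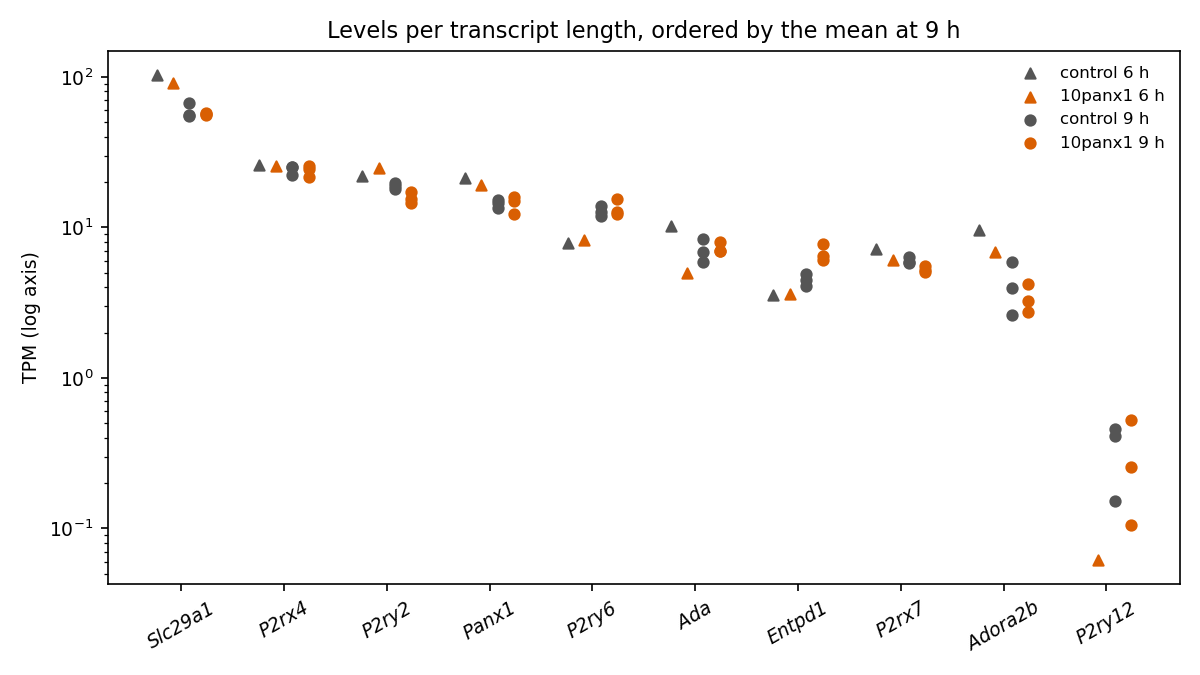
Deposited TPM (log axis) of the 10 genes in each library, with control libraries in grey, 10panx1 libraries in orange, triangles for 6 h and circles for 9 h. Slc29a1 lies above the other genes in all 8 libraries and P2ry12 lies lowest; P2ry12 is listed at 0 in the control library at 6 h, which cannot be drawn on a log axis.

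The question of the design was what changes in deprived BV2 cells when Panx1 channels are blocked. At 9 h, 1 of the 10 genes, Entpd1, rose with 10panx1, by 1.50-fold, and the RNA of Panx1 itself was at 32.7 ± 1.96 CPM in the controls and 32.3 ± 3.94 CPM with 10panx1 (SD, n = 3 each). Entpd1 encodes CD39, the cell-surface enzyme that cuts ATP and ADP to AMP. The other 8 genes tested did not pass the threshold, and P2ry12, with 2 to 11 counts per library at 9 h, had too few counts to be tested. Across all 13392 genes tested 9.21% were called, 5.06% as higher and 4.14% as lower, so that 1 call among 9 tested genes is near the background. The median log2 difference was -0.029 over the 9 genes and -0.0031 over all genes tested.

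**Figure D2:**
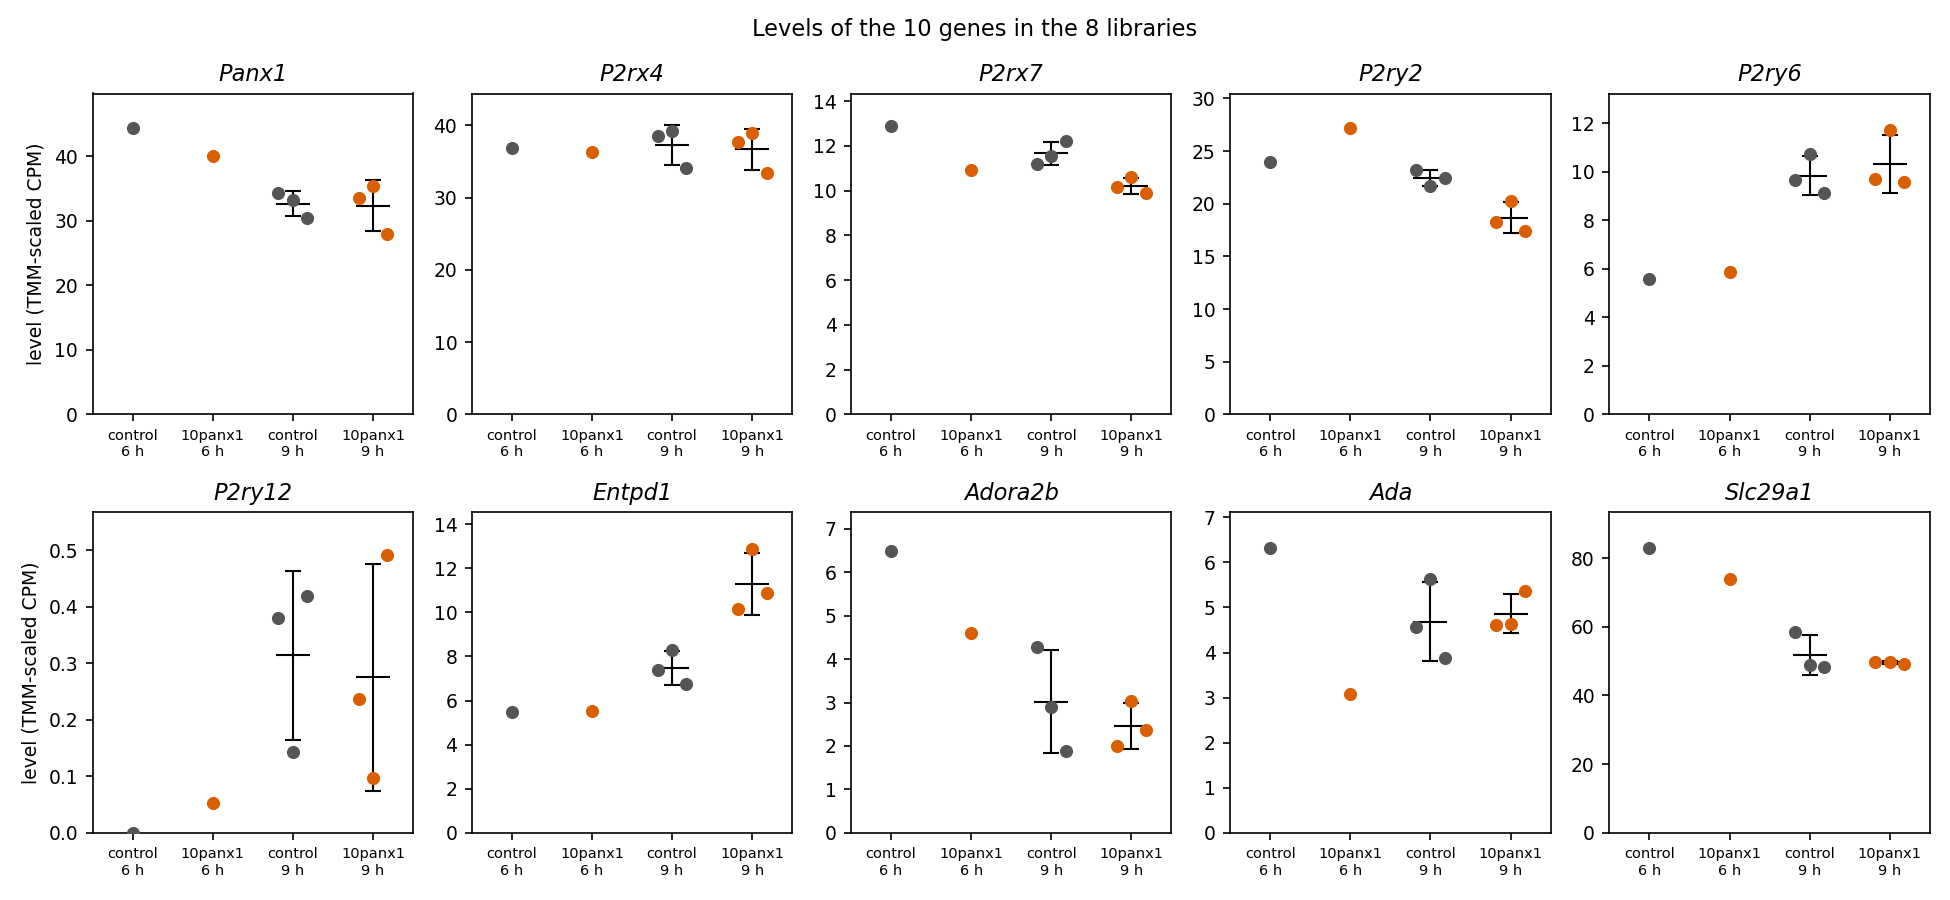
TMM-scaled CPM of each of the 10 genes in every library, by treatment and time, with control libraries in grey, 10panx1 libraries in orange and bars for the mean and SD at 9 h (n = 3). In Entpd1 all 3 10panx1 libraries at 9 h lie above all 3 controls, and in Panx1 both libraries at 6 h lie above all 6 at 9 h.

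Panx1 (ENSMUSG00000031934, chromosome 9, 14913424 to 14956774, minus strand, as the table gives it and with no build named here) stood at 34.3, 33.2 and 30.5 CPM in the controls and at 33.6, 35.5 and 27.9 CPM with 10panx1 at 9 h, where CPM are scaled by TMM factors here and below. The groups overlapped, with the 10panx1 libraries at both ends of the range. The log2 difference was -0.020 with a 95% interval from -0.21 to 0.17 (edgeR, adjusted p = 0.922, n = 3 and 3). At 6 h the single libraries held 44.4 CPM for the control and 40.0 CPM for 10panx1.

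Among the P2X receptors, P2rx7 opens only at high ATP and drives inflammasome activation in macrophages and microglia, while P2rx4 opens at lower ATP and is known for its rise in microglia after nerve injury. P2rx7 was at 11.2, 11.5 and 12.2 CPM in the controls and at 10.2, 10.6 and 9.88 CPM with 10panx1 at 9 h. All 3 10panx1 libraries lay below all 3 controls, but the log2 difference of -0.19, with an interval from -0.41 to 0.026, did not pass the threshold (edgeR, adjusted p = 0.269; -0.15 and 0.5 without the third control). P2rx4, near it on chromosome 5 with 16111 bases and 1 other gene between them in the table, was at 38.6, 39.2 and 34.1 CPM in the controls and at 37.7, 38.9 and 33.4 CPM with 10panx1. These groups overlapped, with a log2 difference of -0.029 and an interval from -0.20 to 0.14 (edgeR, adjusted p = 0.875).

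P2ry2, a receptor for ATP and UTP that couples to Gq, came closest to the threshold among the genes that did not pass. It was at 23.2, 21.6 and 22.4 CPM in the controls and at 18.2, 20.3 and 17.4 CPM with 10panx1 at 9 h. The groups did not overlap, and the log2 difference was -0.27 (SE 0.084, interval from -0.45 to -0.090; edgeR, adjusted p = 0.0583). Without the third control it was -0.26 (adjusted p = 0.137). Without the second 10panx1 library, which was the highest of its group, the difference was -0.33 and passed (adjusted p = 0.0395). P2ry6, the receptor for UDP that triggers engulfment by microglia, lies next to P2ry2 on the same strand of chromosome 7, with 21918 bases and no other gene between them. It was at 9.64, 10.7 and 9.13 CPM in the controls and at 9.68, 11.7 and 9.57 CPM with 10panx1, overlapping groups with a log2 difference of 0.065 and an interval from -0.19 to 0.32 (edgeR, adjusted p = 0.797). P2ry12 had 8, 3 and 8 counts in the controls and 5, 2 and 11 counts with 10panx1. Its span overlaps Med12l on the opposite strand, which had between 2 and 13 counts, and the strand setting of the counting is not given in the sources used here.

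Entpd1 (ENSMUSG00000048120, chromosome 19, 40600810 to 40730046, plus strand in the table) was at 7.41, 8.29 and 6.77 CPM in the controls and at 10.2, 12.9 and 10.9 CPM with 10panx1 at 9 h. The lowest 10panx1 library lay above the highest control, and the means were 7.49 ± 0.767 and 11.3 ± 1.41 CPM (SD, n = 3 each). The log2 difference was 0.59 (SE 0.128, interval from 0.31 to 0.86; edgeR, adjusted p = 0.0108). Without the third control library it was 0.52 (adjusted p = 0.0443). Without the second 10panx1 library, the highest of the 6, it was 0.48 and no longer passed (adjusted p = 0.0514), and it did not pass in limma fits on the deposited TPM (adjusted p from 0.0644 to 0.19). At 6 h the single libraries were alike, at 5.48 CPM in the control and 5.50 CPM with 10panx1. The processed pseudogene Gm8783, within the span of Entpd1 on the same strand, had between 8 and 21 counts against 104 to 267 for Entpd1.

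On the adenosine side no member passed at 9 h. Adora2b, the low-affinity adenosine receptor that couples to Gs, was at 4.27, 2.91 and 1.89 CPM in the controls and at 1.99, 3.04 and 2.37 CPM with 10panx1. The controls spread over more than the whole range of the 10panx1 libraries, and the interval of the log2 difference, from -0.88 to 0.27, was the widest of the 9 genes (edgeR, -0.30, adjusted p = 0.54; -0.54 and 0.222 without the third control). Ada, which turns adenosine into inosine, was at 4.56, 5.62 and 3.88 CPM in the controls and at 4.60, 4.63 and 5.37 CPM with 10panx1, with overlapping groups and a log2 difference of 0.048 (interval from -0.31 to 0.41; edgeR, adjusted p = 0.901). Without the third control the difference of Ada changed sign, to -0.064 (edgeR, adjusted p = 0.882). Slc29a1, the equilibrative transporter ENT1 that carries adenosine across the membrane in either direction, was at 58.6, 48.9 and 48.3 CPM in the controls and at 49.8, 49.9 and 49.2 CPM with 10panx1. Its 10panx1 libraries lay within the range of the controls, with a log2 difference of -0.069 (interval from -0.23 to 0.091; edgeR, adjusted p = 0.628).

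**Figure D3:**
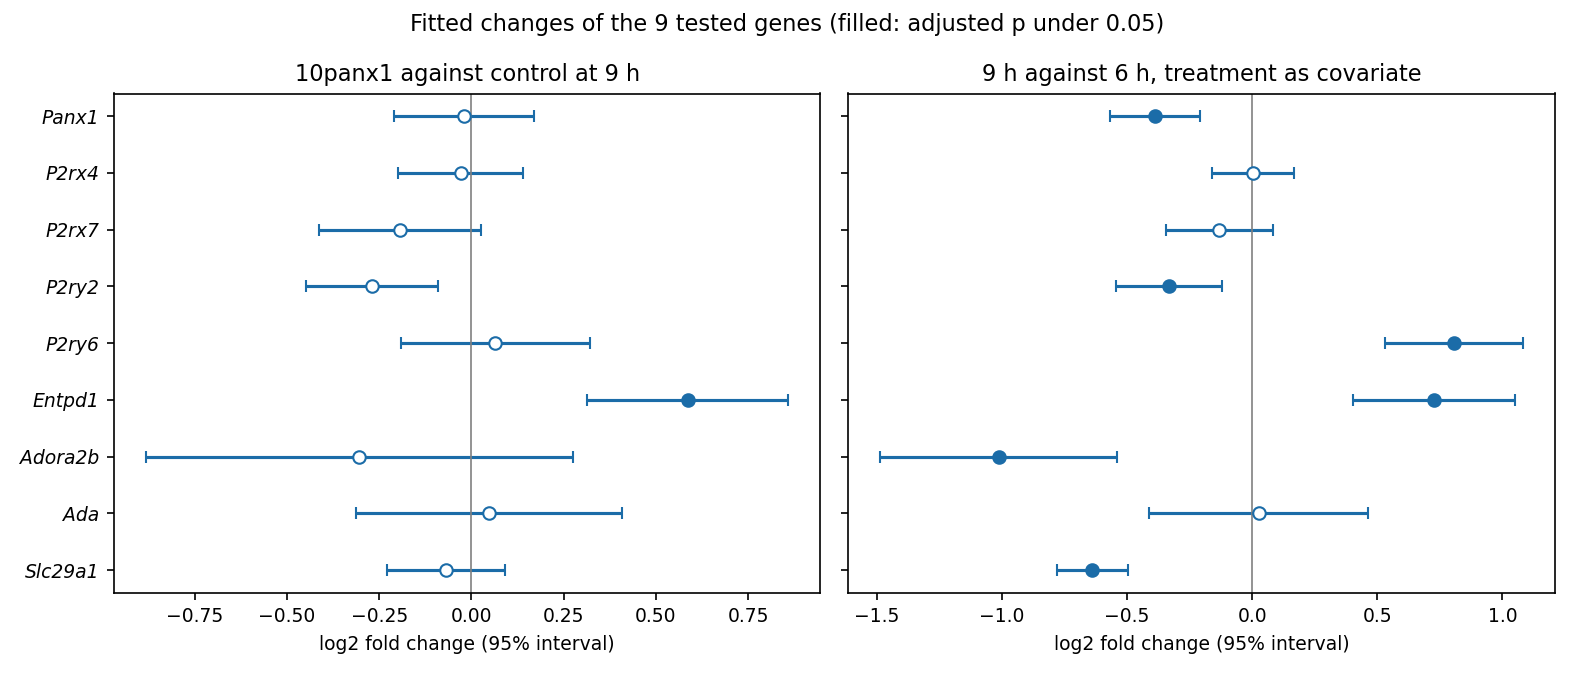
Log2 differences of the tested genes with 95% intervals from edgeR, filled where the adjusted p is under 0.05, for 10panx1 against control at 9 h and for 9 h against 6 h. For 10panx1 at 9 h only the interval of Entpd1 belongs to a call, from 0.31 to 0.86, while for 9 h against 6 h 6 of 9 genes were called.

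Beyond the 10 genes, lists of the wider pathway held 103 genes, the 10 included, of which 71 were tested at 9 h. With 10panx1, 6 of them rose and 4 fell, where 5.06% of all genes tested were called as higher and 4.14% as lower, with a median log2 difference of -0.022 against -0.0031 over all genes tested. None of the 8 tested ATP release channels and transporters, 3 P2X receptors, 4 P2Y receptors, 2 adenosine receptors, 4 nucleoside transporters or 4 luminal nucleoside diphosphatases was called. Some of them passed under other settings. Lrrc8d, a subunit of volume-regulated anion channels, had a log2 difference of 0.19 (adjusted p = 0.0642) and passed with no filter on low counts (0.19, adjusted p = 0.0138) and without the third 10panx1 library (0.25, adjusted p = 0.0314). Slc28a2, a sodium-coupled transporter that takes up purine nucleosides, was at 0.41 (adjusted p = 0.128) and passed with no filter (0.41, adjusted p = 0.00571) and without the first 10panx1 library (0.59, adjusted p = 0.0101). Slc29a3, an equilibrative nucleoside transporter, was at -0.31 (adjusted p = 0.0871) and passed without the third control (-0.40, adjusted p = 0.0456). Of the 2 tested ectonucleotidases Entpd1 rose, and Alpl, tissue-nonspecific alkaline phosphatase, had a log2 difference of -0.024 (edgeR, adjusted p = 0.871). Nt5e, the CD73 enzyme that makes adenosine from the AMP left by Entpd1, had between 0 and 11 counts per library and was not tested. Panx2 had at most 1 count, and Panx3 had 0 counts in all 8 libraries.

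Of 17 tested enzymes of adenosine and purine interconversion, 2 fell and 1 rose, against 9.21% of all genes called either way. Pnp, the phosphorylase that splits the inosine made by Ada, was at 17.5, 16.2 and 16.1 CPM in the controls and at 12.1, 11.3 and 11.1 CPM with 10panx1 at 9 h. The groups did not overlap, and the fall was 0.54 on the log2 scale, which is 1.45-fold (SE 0.092; edgeR, adjusted p = 0.0032). The single libraries at 6 h held 16.5 CPM in the control and 10.8 CPM with 10panx1, and the near-identical copy Pnp2 had at most 1 count. Dck, deoxycytidine kinase, fell by 0.35 on the log2 scale (edgeR, adjusted p = 0.00889), and Ampd2, an AMP deaminase, rose by 0.23 (adjusted p = 0.0464). The call of Ampd2 was lost without any single library other than the first 10panx1 library (adjusted p from 0.082 to 0.182).

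Of 22 tested G proteins and second messenger genes 3 rose and 2 fell, against the same 9.21%. Plcb2, a phospholipase C downstream of G protein-coupled receptors, rose by 0.28 (SE 0.051; edgeR, adjusted p = 0.00382), and Itpr3, an inositol trisphosphate receptor that releases calcium, rose by 0.31 (SE 0.057; adjusted p = 0.00413). The phosphodiesterase Pde4b, which degrades cyclic AMP, rose by 0.18 (adjusted p = 0.0422). Gna12 fell by 0.24 and Gnas, which encodes Gs, fell by 0.30 on the log2 scale (edgeR, adjusted p = 0.0331 and 0.0365). The calls of Gna12 and Pde4b were lost without any single library (adjusted p from 0.0518 to 0.113 and from 0.0644 to 0.163), and that of Gnas without any but the second control (0.0632 to 0.138). Of 5 tested genes that act on Panx1, Src, the kinase that the series text asks about, rose by 0.47 (SE 0.083; edgeR, adjusted p = 0.0035). It stood at 55.5, 63.2 and 67.7 CPM in the controls and at 76.3, 94.3 and 87.9 CPM with 10panx1, groups that did not overlap. In the limma fits on TPM the calls of Src, Itpr3 and Dck were lost (adjusted p from 0.0505 to 0.15, from 0.0512 to 0.14 and from 0.0644 to 0.169). Pnp and Plcb2 lost theirs only in the limma fit on TPM with no filter (adjusted p = 0.106 and 0.111), which called 0 genes. Ampd2, Gna12, Gnas and Pde4b were not called in any limma fit on TPM. Gnas and Pde4b were also not called by DESeq2 (adjusted p = 0.0975 and 0.0503), nor Ampd2 by limma-voom (adjusted p = 0.0529).

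Without the third control at 9 h, 845 genes were called in place of 1233. Pnp was then at -0.55 (adjusted p = 0.0109), Dck at -0.38 (adjusted p = 0.0181), Plcb2 at 0.31 (adjusted p = 0.0102), Itpr3 at 0.35 (adjusted p = 0.00779) and Src at 0.54 (adjusted p = 0.00471), all still called by edgeR. Ampd2 at 0.24 (adjusted p = 0.082), Gna12 at -0.21 (adjusted p = 0.113), Gnas at -0.28 (adjusted p = 0.109) and Pde4b at 0.15 (adjusted p = 0.163) were not called without it.

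Between 6 h and 9 h the members that were called went in both directions. Over both treatments P2ry6 and Entpd1 rose, and Panx1, P2ry2, Adora2b and Slc29a1 fell, 6 of the 9 genes tested. In this comparison 63.1% of all 14315 genes tested were called, 31.6% as higher and 31.5% as lower at 9 h, so the share of called members is near the background. On the deposited TPM, 37.6% of the calls were higher at 9 h, against 50.1% of the calls on counts, and the same 6 members were called. There was 1 library per treatment at 6 h, so the spread came from the libraries at 9 h together with the residual between treatments, and a library at 6 h that stands apart and an effect of time cannot be told apart.

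Panx1 had 44.4 and 40.0 CPM at 6 h and between 27.9 and 35.5 CPM at 9 h, where all 6 libraries lay below both at 6 h. It fell by 0.39 on the log2 scale, or 1.31-fold (SE 0.085; edgeR, adjusted p = 0.000742). The 3 genes whose pattern over the 8 libraries was most like that of Panx1, among 9954 with a mean of at least 50 counts, were Pex6, Cyba and Ccdc120, with a mean absolute log2 difference from its centred profile of 0.031, 0.032 and 0.036. Pex6 is a peroxisome biogenesis factor and Cyba a subunit of the superoxide-producing NADPH oxidase. The member closest to Panx1 was P2ry2, at 0.134, which ranked 2106 among the candidates.

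The receptors went in several directions. P2ry6 was at 5.57 and 5.87 CPM at 6 h and between 9.13 and 11.7 CPM at 9 h. These did not overlap, and P2ry6 rose 1.75-fold (log2 0.81, SE 0.131; edgeR, adjusted p = 4.33e-05). Its neighbour P2ry2 was at 23.9 and 27.2 CPM at 6 h and between 17.4 and 23.2 CPM at 9 h, and it fell by 0.33 on the log2 scale (SE 0.1; edgeR, adjusted p = 0.00785). Within control the log2 difference of P2ry2 was -0.11 (adjusted p = 0.489) and within 10panx1 it was -0.56 (adjusted p = 0.00149). Without the 10panx1 library at 6 h, the highest of the 8, the difference was -0.11. That fit takes the change with time from the controls alone, and so repeats the value within control. P2rx4 was at 36.9 and 36.4 CPM at 6 h, within its range of 33.4 to 39.2 CPM at 9 h (log2 0.0030, interval from -0.16 to 0.17; edgeR, adjusted p = 0.976). P2rx7 was at 12.9 and 10.9 CPM at 6 h and between 9.88 and 12.2 CPM at 9 h (log2 -0.13, interval from -0.34 to 0.081; edgeR, adjusted p = 0.267). P2ry12 had 0 counts in the control library and 1 count in the 10panx1 library at 6 h against 37 counts over the 6 libraries at 9 h, a ratio of 12.4 per unit of depth with a counting interval from 2.09 to 501. It was left out of this test by the filter on low counts, and with no filter it was called by edgeR (adjusted p = 0.0117) but not by DESeq2 (adjusted p = 0.0662) or by limma on TPM (adjusted p = 0.111).

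Entpd1 was at 5.48 and 5.50 CPM at 6 h, below all 6 libraries at 9 h, which ran from 6.77 to 12.9 CPM. It rose 1.65-fold over both treatments (log2 0.73, SE 0.154; edgeR, adjusted p = 0.000566). Within control the log2 difference was 0.44 and not called (adjusted p = 0.0714), and within 10panx1 it was 1.02 and called (adjusted p = 0.000659). Without the 10panx1 library at 6 h the difference was 0.44, which repeats the value within control, since time then rests on the controls alone.

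On the adenosine side, Adora2b had 6.48 and 4.60 CPM at 6 h and between 1.89 and 4.27 CPM at 9 h. It fell 2.02-fold, the largest change with time among the 9 genes tested (log2 -1.01, SE 0.224; edgeR, adjusted p = 0.00081). Slc29a1 had 83.1 and 73.9 CPM at 6 h and between 48.3 and 58.6 CPM at 9 h, and it fell 1.56-fold (log2 -0.64, SE 0.068; edgeR, adjusted p = 3.53e-07). The falls of Panx1, Adora2b and Slc29a1 and the rise of P2ry6 were also called within control alone, where 51.3% of all genes were called, and within 10panx1 alone, where 48.4% were. Ada had 6.31 CPM at 6 h in the control and 3.07 CPM with 10panx1, on either side of its range of 3.88 to 5.62 CPM at 9 h. Its log2 difference was -0.43 within control (adjusted p = 0.111) and 0.65 within 10panx1 (adjusted p = 0.0459), and 0.026 over both (edgeR, adjusted p = 0.922).

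**Figure D4:**
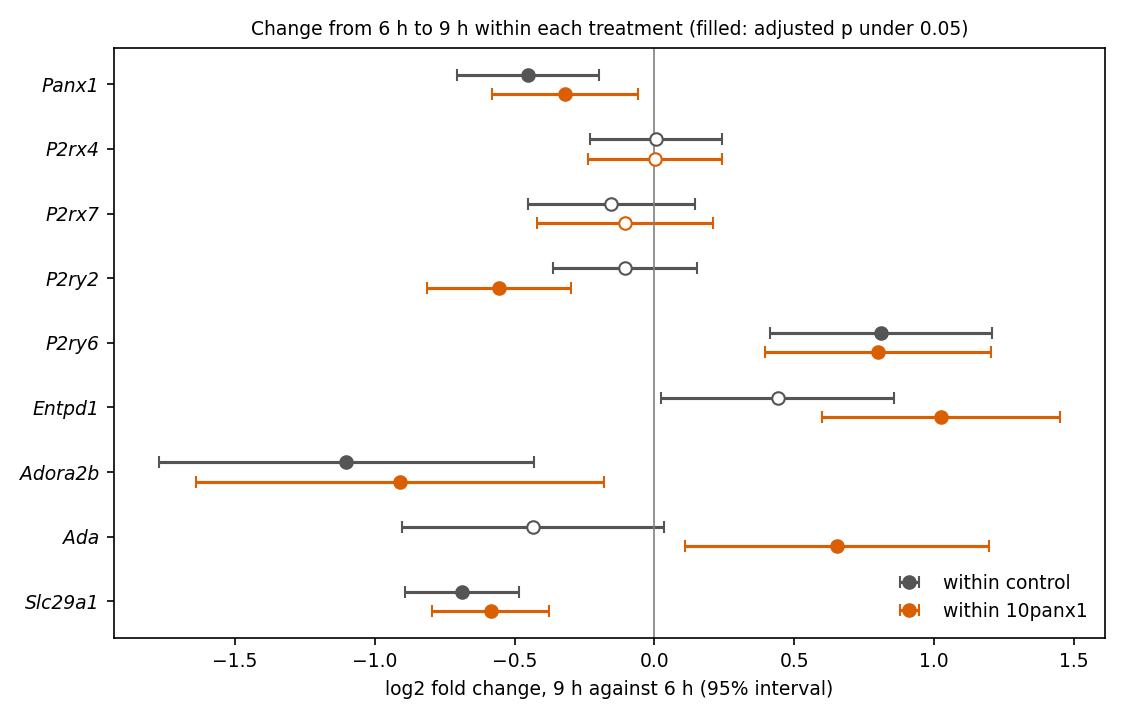
Log2 change from 6 h to 9 h within control (grey) and within 10panx1 (orange) for the 9 tested genes, as edgeR estimates with 95% intervals, filled where the adjusted p is under 0.05. Panx1, Adora2b and Slc29a1 lie below 0 and P2ry6 above 0 in both treatments, while P2ry2, Entpd1 and Ada were called within 10panx1 and not within control, a difference that was not called in its own test.

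**Figure D5:**
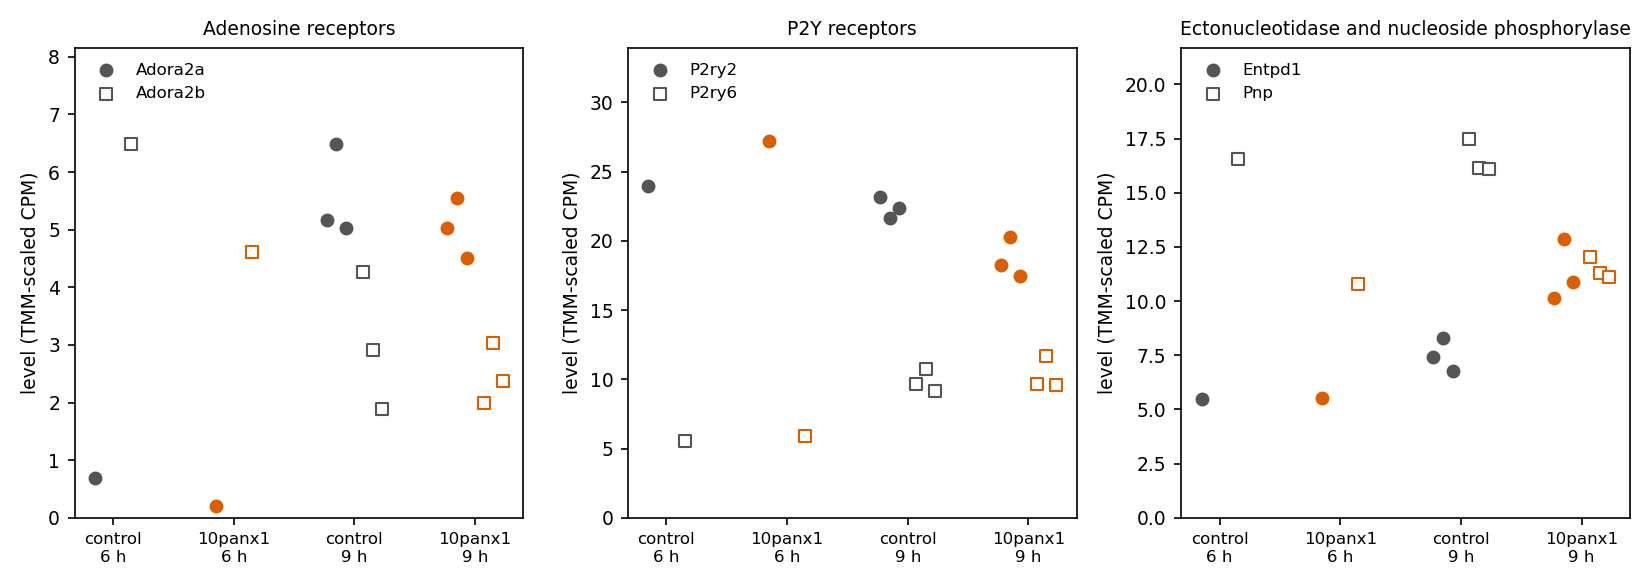
TMM-scaled CPM by library of 3 pairs of genes with related roles, the first gene of each pair as filled circles and the second as open squares, with control libraries in grey and 10panx1 libraries in orange. Adora2a is higher and Adora2b lower at 9 h than at 6 h, P2ry6 is higher and P2ry2 lower, and at 9 h Entpd1 is higher and Pnp lower with 10panx1.

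Of 73 genes of the wider lists tested against time, the members included, 24 rose and 27 fell, where 31.6% of all genes tested were called as higher and 31.5% as lower. The median log2 difference was -0.045 over the lists and -0.00088 over all genes tested. Adora2a, the high-affinity adenosine receptor that couples to Gs as Adora2b does, had 16 and 4 counts at 6 h and between 96 and 136 counts at 9 h. It rose (log2 3.47, SE 0.288; edgeR, adjusted p = 1.74e-08), and the size of the rise rested on the libraries at 6 h, with a log2 difference of 4.52 without the control and of 2.98 without the 10panx1 library at that time (adjusted p = 9.31e-07 and 2.38e-06). It was 2.08 in limma on log2(TPM + 1), a scale that understates changes of low genes. At 6 h Adora2b stood at 9.64 and 6.86 TPM against 0.736 and 0.224 TPM for Adora2a, and at 9 h Adora2b ran from 2.61 to 5.90 TPM and Adora2a from 4.36 to 6.26 TPM.

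The other P2X receptors with enough counts went in both directions at low levels. P2rx5 had 2 counts in each library at 6 h and 39 to 61 counts with 10panx1 and 38 to 49 counts in the controls at 9 h, a ratio of 22.9 per unit of depth with a counting interval from 8.84 to 84.6 (edgeR, adjusted p = 3.12e-07). P2rx2 had 24 and 15 counts at 6 h and between 2 and 8 at 9 h (log2 -2.06; edgeR, adjusted p = 0.000746). Within 10panx1 its difference was -1.49 and not called (adjusted p = 0.0602), a value that the fit without the control library at 6 h repeats. Without the 10panx1 library at 6 h the difference of P2rx2 was -2.64. P2ry1, a receptor for ADP, fell by 1.03 on the log2 scale (edgeR, adjusted p = 0.00252). Within control its difference was -0.77 and not called (adjusted p = 0.0881), a value that the fit without the 10panx1 library at 6 h repeats.

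Among the routes of ATP release, Slc17a9, the vesicular nucleotide transporter, fell 1.98-fold (log2 -0.98, SE 0.111; edgeR, adjusted p = 7.39e-07). Lrrc8b, a channel subunit like Lrrc8d, rose by 0.86 (adjusted p = 9.42e-07). Lrrc8e, another subunit, had 1 and 2 counts at 6 h and between 23 and 52 counts at 9 h, a ratio of 26.4 with a counting interval from 8.93 to 129. Slc29a2, the second equilibrative transporter, fell by 1.05 as Slc29a1 did, and Slc28a2 rose by 1.00 (edgeR, adjusted p = 0.000121 and 0.000151). Alpl fell by 0.26 (adjusted p = 0.00155), and of the luminal enzymes Cant1 fell by 0.47 and Entpd6 by 0.43 (adjusted p = 1.43e-05 and 0.00036).

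Of the 17 enzymes of purine interconversion 7 fell and 3 rose, against 63.1% of all genes called either way. Ampd2 fell by 0.62, Aprt, which salvages adenine, by 0.33 and Adal, a deaminase-like protein, by 0.84 on the log2 scale (edgeR, adjusted p = 8.27e-07, 3.99e-06 and 1.88e-05). Of the 22 G proteins and messengers 10 rose and 8 fell, against the same 63.1%. Gna13 rose 2.67-fold, Pde4b 2.13-fold and Adcy3, an adenylyl cyclase, 4.82-fold (edgeR, adjusted p = 8.82e-12, 1.52e-10 and 3.56e-08). Of the 5 tested genes that act on Panx1, 3 rose. Among them, Src rose 3.40-fold and the kinase Fyn 1.46-fold (edgeR, adjusted p = 1.51e-10 and 7.55e-07).

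The last comparison was whether the effect of 10panx1 differed between 6 h and 9 h. None of the 10 genes was called, and edgeR called 0 of 15331 genes (0%), with 874 at an unadjusted p under 0.05. DESeq2 also called 0, with 402 at an unadjusted p under 0.05. The design had a single library in each group at 6 h. The largest estimates among the 9 genes with more than 11 counts in any library belonged to Ada, P2ry2 and Entpd1.

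Ada was at 6.31 CPM in the control and 3.07 CPM with 10panx1 at 6 h, a log2 ratio of -1.02 with a counting interval from -1.50 to -0.59, against a difference of 0.048 at 9 h. The difference between these effects was 1.09 on the log2 scale (SE 0.33; edgeR, unadjusted p = 0.00578, adjusted p = 0.848). P2ry2 had a log2 ratio of 0.18 at 6 h and of -0.27 at 9 h, a difference of -0.45 (SE 0.166; unadjusted p = 0.0176, adjusted p = 0.848). Entpd1 had a log2 ratio of 0.0053 at 6 h and of 0.59 at 9 h, a difference of 0.58 (SE 0.268; unadjusted p = 0.0492, adjusted p = 0.876). None of these differences passed the correction, so a different effect of 10panx1 at the 2 times was not shown for any of these genes.

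Apart from P2ry12, the other genes showed smaller differences between the effects, though not all had smaller ratios at 6 h. At 6 h, with no test, the log2 ratio of 10panx1 to control was -0.15 for Panx1, -0.021 for P2rx4, -0.24 for P2rx7, 0.075 for P2ry6, -0.49 for Adora2b and -0.17 for Slc29a1. The counting interval of Adora2b, from 149 and 87 counts, ran from -0.89 to -0.10. Those of Panx1, from -0.29 to -0.013, and of Slc29a1, from -0.27 to -0.069, were also wholly negative. The counting intervals of P2rx4, P2rx7 and P2ry6 spanned both signs. The differences between 9 h and 6 h in these 6 genes lay between -0.011 for P2ry6 and 0.19 for Adora2b, with adjusted p of at least 0.954 in edgeR.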

How the data were processed

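Poly(A) RNA went into directional libraries, per the labels' protocols. Read counts per gene and TPM were deposited for 8 libraries in tables of 57010 rows, and 151 repeated rows of 148 symbols were dropped here. The submitters' processing notes list STAR, featureCounts, Trimmomatic, FastQC and DESeq2 with no version or role. They also list GRCm38, yet its annotation shares a start with 1420 of 51933 nuclear genes (2.73%), and coordinates from the table are therefore printed with no build.

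The deposited counts were fitted with edgeR 4.0.16 under R 4.3.3, with TMM scaling, filterByExpr and the quasi-likelihood test. Benjamini-Hochberg adjustment ran over all tested genes, with a threshold of 0.05. The fit at 9 h held its 6 libraries and no block. Time was tested over all 8, adjusting for treatment, and the interaction was tested there too. A prior count of 2 went into the ratios at 6 h. CPM were computed from the deposited counts, and counting intervals are exact 95% intervals. Alternatives were other scalings and filters, DESeq2 1.42.0, limma-voom (limma 3.58.1), limma on TPM with a pseudocount of 1 or 0.1, a replicate block and the omission of single libraries. The scripts were tested on simulated data.

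The named genes were the 10 members, Src, up to 3 genes per list and comparison with the smallest p, and the 3 genes most like Panx1. Gnas and Pde4b at 9 h and the untested genes were named after their values were seen. A gene of the lists that the rule names is not reported here. The members and lists were chosen with earlier results of these data known. Replicate pairs at 9 h were farther apart than sampling noise. Plots used Python 3.11.15 with matplotlib 3.10.9.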

Additional observations from a re-analysis of the deposited data

How the results depend on the processing

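Entpd1 was called at 9 h in 13 of 17 alternatives, with log2 differences from 0.48 to 0.67. Members called at 9 h numbered 1 without each library in turn, 0 in the 3 limma fits on TPM and 2 under a replicate block, where P2ry2 also passed (-0.27, adjusted p = 0.0402). The member called was P2ry2 without the second 10panx1 library and Entpd1 without each of the others. Lrrc8d and Slc28a2 of the wider lists passed under that block too (adjusted p = 0.0236 and 0.0449). Replicate numbers were not taken as pairs, since deviations of same-numbered libraries correlated at 0.0943, -0.0071 and 0.0741. All genes called at 9 h numbered 619 to 1468 without each library in turn, 368 and 371 in limma on log2(TPM + 1) and log2(TPM + 0.1), 0 with no filter on TPM (3422 at an unadjusted p under 0.05) and 1850 under the replicate block. For 9 h against 6 h, leaving out each library gave 4 to 7 members, 4 without the 10panx1 and 7 without the control library at 6 h, and 6922 to 9098 genes. The interaction called 34 genes with no filter, 2 on log2(TPM + 0.1), 641 on TPM with no filter and 0 to 1 without each library, and no member in any of these. For 9 h against 6 h the median of all genes shifted to -0.11 on log2(TPM + 1) and -0.12 on log2(TPM + 0.1).

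The estimates that changed sign had all missed the threshold, and the cause was not tested. At 9 h, leaving out each library gave ranges of -0.094 to 0.072 for Panx1, -0.084 to 0.030 for P2rx4, -0.036 to 0.13 for P2ry6, -0.54 to 0.026 for Adora2b, -0.064 to 0.20 for Ada, -0.11 to 0.024 for Slc29a1, -0.047 to 0.015 for Alpl, -0.062 to 0.015 for Entpd5 and -0.16 to 0.23 for P2rx5. For 9 h against 6 h the ranges were -0.018 to 0.033 for P2rx4 and -0.43 to 0.65 for Ada, whose value within control was -0.43. Upper-quartile scaling turned P2rx4 to -0.035 and Ada to -0.013, and a stricter filter turned P2rx4 to -0.00013. Limma on log2(TPM + 1), with and without the filter, gave -0.10 for P2rx4, -0.016 for Ada, -0.033 for Entpd5 and -0.030 for Slc29a3, and on log2(TPM + 0.1) it gave -0.10, -0.0088, -0.034 and -0.034. In the interaction, leaving out each library gave -0.059 to 0.059 for P2rx4, -0.11 to 0.059 for P2ry6 and -0.045 to 0.52 for Adora2b, and upper-quartile scaling turned P2rx4 to 0.020 and P2ry6 to 0.015.

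With 1 library per treatment at 6 h, the treatments were not tested at that time alone, and leaving one out assumes that the other varies like the libraries at 9 h. Leaving out a library at 6 h also takes the change with time from the other treatment alone. Such a fit repeats the value within that treatment and is not a separate check. P2ry12, Nt5e and other genes with few counts lay too near the floor for a change at 9 h to be detectable at this depth.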
